A study of Bos taurus with 8 samples.

Results

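NF-kB is a family of transcription factors that drives inflammatory and survival genes in blood leukocytes, and 30 genes of its signalling route were followed here in peripheral blood mononuclear cells (PBMCs) of cows. The genes were chosen by name, with earlier results of these data known. They are 5 Rel subunits, 8 IkB proteins and partners of the deubiquitinase A20, 4 IRAK kinases, and 8 receptors and adaptors. A further 5 genes encode the IkB kinase (IKK) complex and the MAP3 kinases above it. Every probe whose accession belongs to one of these genes was taken, which gave 51 probes for 27 genes among the 43653 noncontrol probes of the array. No probe was matched to RELB, TNIP3 or TRAF2. Of the 27 genes, 24 had a probe that stood well above background throughout 1 or more groups, and these entered the comparisons, out of 15137 genes in all. The other 3 were dim: REL was well above background on 2 lame, 1 normal crossbred and 0 Tharparkar arrays, IRAK3 on 2, 1 and 0, and TNFAIP3, which encodes A20, on 1, 0 and 0. The 24 genes that entered are therefore those bright enough in some group, and counts over them say nothing about the other 6.

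The 8 one-colour arrays hold PBMC RNA of lame crossbred cows (4 arrays), of normal crossbred cows (2 arrays) and of normal Tharparkar cows, an Indian zebu breed (2 arrays). Neither the age of the cows nor any treatment is given in the sources used here, and the lesion behind the lameness is not given either. Lame arrays carry 2 numbers in their titles (R1_1, R1_2, R2_1, R2_2), normal arrays carry 1 (R1, R2), and RNA was run as technical duplicates per the labels' protocols. Across all genes, arrays sharing the first lame number correlated at 0.995 for lame R1 and 0.981 for lame R2. The 2 normal crossbred arrays correlated at 0.997 and the 2 Tharparkar arrays at 0.995. Lame R1 with lame R2 arrays gave 0.951 to 0.970, and lame with normal crossbred arrays 0.942 to 0.966. The titles are therefore read here as 4 RNA samples, each on 2 arrays. These are a pair of lame samples (R1 and R2) and 1 sample for either normal group. The labels do not say how many cows gave each sample. All tests below count arrays. A p-value therefore reflects how arrays vary and does not measure how cows vary, and it could be larger if cows were the unit.

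In resting cells the NF-kB dimers, such as RELA with NFKB1, are held in the cytoplasm by IkB proteins. A receptor of the TNF or Toll-like family recruits TRAF, RIPK and IRAK proteins, these switch on the IKK complex of CHUK, IKBKB and IKBKG, and the complex marks IkB for destruction, so that the dimer enters the nucleus. Several genes of the pathway, among them NFKBIA, TNFAIP3, NFKBIZ, BCL3, BIRC3 and TRAF1, are themselves transcribed by NF-kB. A second route through MAP3K14 processes NFKB2.

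Values are the scanner software's processed signals on a log2 scale, from which the 75th percentile of each array was subtracted, so a level of 0 means a signal equal to that percentile. A difference of 1 is 2-fold. Groups were compared with limma in 1 fit over all 8 arrays, and a gene was called higher or lower at an adjusted p under 0.05, adjusted by Benjamini-Hochberg over all 15137 genes. Lame R2_2 stood apart in brightness: 70.9% of its probes were well above background against 52.8% to 61.5% on the others, and its median raw signal was 192.5 against 74 to 102. The arrays lay on 2 slides, each holding all 3 groups.

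Between lame and normal crossbred arrays, the IkB genes NFKBIA and NFKBIZ, the subunit gene RELA and the adaptor kinase gene RIPK1 were lower, and the kinase genes IRAK1 and MAP3K8 were higher. That is 6 of 24 measured members (25%), where the background was 9.61% of all genes. Of these, 2 were higher (background 3.3%) and 4 lower (background 6.32%). The members were chosen with earlier results of these data known, so a share above the background is no independent evidence. The members' median difference was -0.09 and that of all genes -0.04. Lame and normal crossbred arrays did not overlap for 11 of the 24 (45.8%), against 38.8% of all genes. IRAK1 entered the test through the lame arrays alone, where it was high. With only probes well above background on all arrays, IRAK1 dropped out and 5 of 22 members passed (22.7%, background 10.6%). Of these, 1 was higher and 4 were lower. With the slide as a block the count was 3 (NFKBIZ, NFKBIA and IRAK1; 6.61% of all genes passed), with the duplicates averaged 1 (IRAK1; 1.1% of all genes), and without normal crossbred R1 or R2 0 (1.18% and 1.23% of all genes). It was 2 without either Tharparkar array (4.74% of all genes) and 3 without lame R1_1, R1_2 or R2_1 (7.86%, 7.22% and 8.6%).

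Between the normal crossbred and the Tharparkar arrays 0 of the 24 members passed the limma test, where the background was 18.6% of all genes (11.7% higher and 6.91% lower). At an unadjusted p under 0.05 there were 4, namely IKBKG, CHUK, TRAF1 and RELA. The median was -0.07 for the members and 0.01 for all genes, and the 2 groups did not overlap for 19 of 24 members (79.2%) against 81.9% of all genes. Other settings of the same tool called 3 members with quantile normalization (18.6% of all genes), 2 with a gene's probes averaged (22.1%), 14 with array weights (62.4%) and 1 without lame R2_2 (26.3%). In each of these the members' share (12.5%, 8.33%, 58.3% and 4.17%) was below that of all genes.

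Between the lame and the Tharparkar arrays 6 of 24 members passed (25%), 2 higher and 4 lower, with a background of 23.3% (12.5% higher and 10.8% lower). The groups did not overlap for 15 members (62.5%) against 50% of all genes. The share of called members was thus near that of all genes. NFKBIZ, NFKBIA, RELA and CHUK were lower and IRAK1 and NFKBIE higher, and the median was -0.28 for the members against -0.01 for all genes. After quantile normalization 8 were called, 5 higher and 3 lower (21.6% of all genes), and the median was 0.01. Without Tharparkar R1 the count was 3 (5.63% of all genes), without Tharparkar R2 it was 2 (6.07%), and with the duplicates averaged it was 0 (3.51%). This comparison shares its lame arrays with the first and its Tharparkar arrays with the second, so a gene called in more than 1 comparison was not measured independently.

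**Figure D1:**
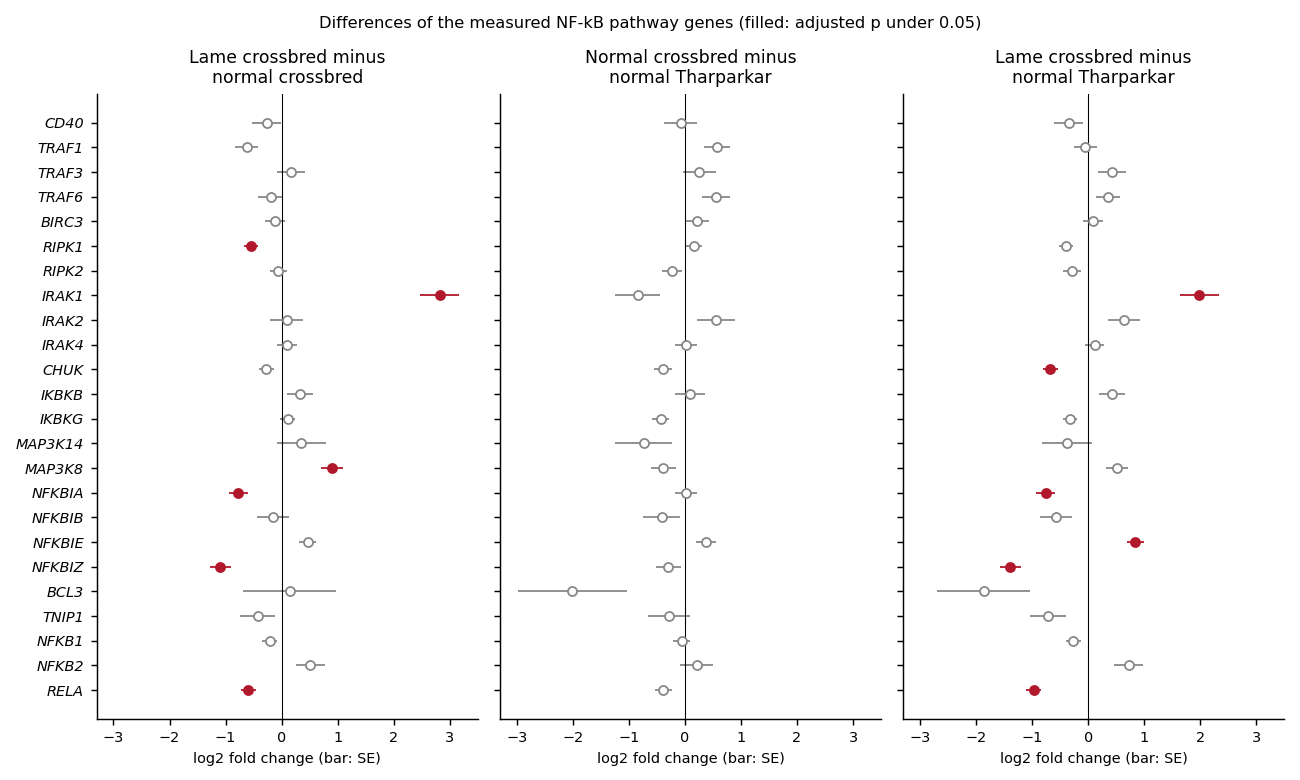
Log2 difference of each of the 24 measured members in the 3 comparisons, ordered by role, with the standard error of the limma fit as a bar and filled points at an adjusted p under 0.05. The left and right panels hold 6 filled points each and the middle panel none, and IRAK1 lies farthest to the right at 2.82 and 1.98, differences from normal arrays of which only 1 was well above background.

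Among the receptors and adaptors, 1 of 7 measured genes was lower in lame arrays when set against normal crossbred. This gene was RIPK1, a kinase that links the TNF receptor to IKK. Its level was 3.28 and 3.37 on the lame R1 arrays, 3.29 and 3.37 on the lame R2 arrays, 3.82 and 3.94 on the normal crossbred arrays and 3.66 and 3.79 on the Tharparkar arrays. Every lame array lay below every normal array, and lame R1 and R2 were alike. The difference from normal crossbred was -0.55 (SE 0.13, n = 4 and 2 arrays, adjusted p = 0.0395), with -0.53 within slide 1 and -0.57 within slide 2. It missed the threshold with the slide as a block (adjusted p = 0.0576), as did the difference from Tharparkar of -0.39 (adjusted p = 0.0635).

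TRAF1, a signalling adaptor of TNF receptors, was highest on the normal crossbred arrays without passing the test. Its level was 2.96 and 2.80 on lame R1, 2.53 and 2.28 on lame R2, 3.29 and 3.25 on normal crossbred, and 2.70 and 2.68 on Tharparkar. The normal crossbred arrays were the highest of all, while the Tharparkar arrays lay between lame R1 and lame R2. The difference was -0.63 (SE 0.21, adjusted p = 0.105) for lame minus normal crossbred and 0.58 (SE 0.24, adjusted p = 0.136) for normal crossbred minus Tharparkar. After quantile normalization both passed (-0.52, adjusted p = 0.0365, and 0.64, adjusted p = 0.0176), whereas the other probe of TRAF1 gave 0.67 and -0.70.

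The other 5 genes of this group stayed between -0.27 and 0.17 in the lame against normal crossbred comparison. CD40, the B cell and monocyte receptor for T cell help, gave -0.27 (SE 0.26), and TRAF6, the ubiquitin ligase below CD40 and Toll-like receptors, -0.20 (SE 0.22). RIPK2, the kinase below the NOD receptors, gave -0.06 (SE 0.15), BIRC3, an inhibitor of apoptosis and ubiquitin ligase, -0.12 (SE 0.18), and TRAF3, a restraint on MAP3K14, 0.17 (SE 0.25). In the gene table used for names BIRC2 is a synonym of the bovine BIRC3 entry, so the symbol may cover what other species list apart. None of the 7 receptors and adaptors passed in either comparison with the Tharparkar arrays, where the lowest adjusted p was 0.136 against normal crossbred and 0.0635 against lame.

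IRAK1, a kinase that carries the signal of interleukin-1 and Toll-like receptors, showed the widest difference of all members between lame and normal crossbred arrays. Its level was -2.62 and -2.40 on lame R1, -2.95 and -1.94 on lame R2, -5.25 and -5.35 on normal crossbred, and -3.95 and -4.97 on Tharparkar. The lame arrays were all above the normal ones, with no overlap. The single probe was dim, well above background on 4 of 4 lame arrays, 0 of 2 normal crossbred and 1 of 2 Tharparkar arrays. The normal crossbred level is therefore not a measured size. On the processed signals IRAK1 was put at 4.76-fold or more higher in the lame arrays. This figure sets the mean lame level against, per normal array, the dimmest signal of any probe that still stood well above background. Where the probe's own signal was higher, that signal was used. The figure is no detection limit of this probe and depends on the background subtraction, since normexp gave a log2 difference of 0.57. The measured means were -2.48 and -5.30 (difference 2.82, SE 0.35, adjusted p = 0.00418).

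IRAK1 entered the test through the lame arrays alone, the group where it was high. With the duplicates averaged the call against normal crossbred was kept and that against Tharparkar was lost. Either normal group is then 1 sample, assumed to vary like the 2 lame samples. The call against normal crossbred was lost under normexp background correction, which gave 0.57 (adjusted p = 0.265). It was also lost without normal crossbred R1 (2.87) or R2 (2.77). Against Tharparkar the difference was 1.98 (SE 0.35, adjusted p = 0.00783), with 1.17 within slide 1 and 2.79 within slide 2; since only 1 of 2 Tharparkar arrays, that on slide 1, was well above background, the mean and the slide 2 value are not measured sizes. In this comparison normexp gave -0.0004, and without Tharparkar R2 the call was lost (1.48, adjusted p = 0.0739). Neither of the other IRAK genes passed. For lame minus normal crossbred IRAK4, the kinase that starts the cascade, gave 0.09 (SE 0.18) on its brightest probe and 0.74 on the other (adjusted p = 0.0692), and IRAK2 gave 0.09 (SE 0.29; lame R1 alone -0.23, lame R2 alone 0.41) and 0.72 on the other.

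**Figure D2:**
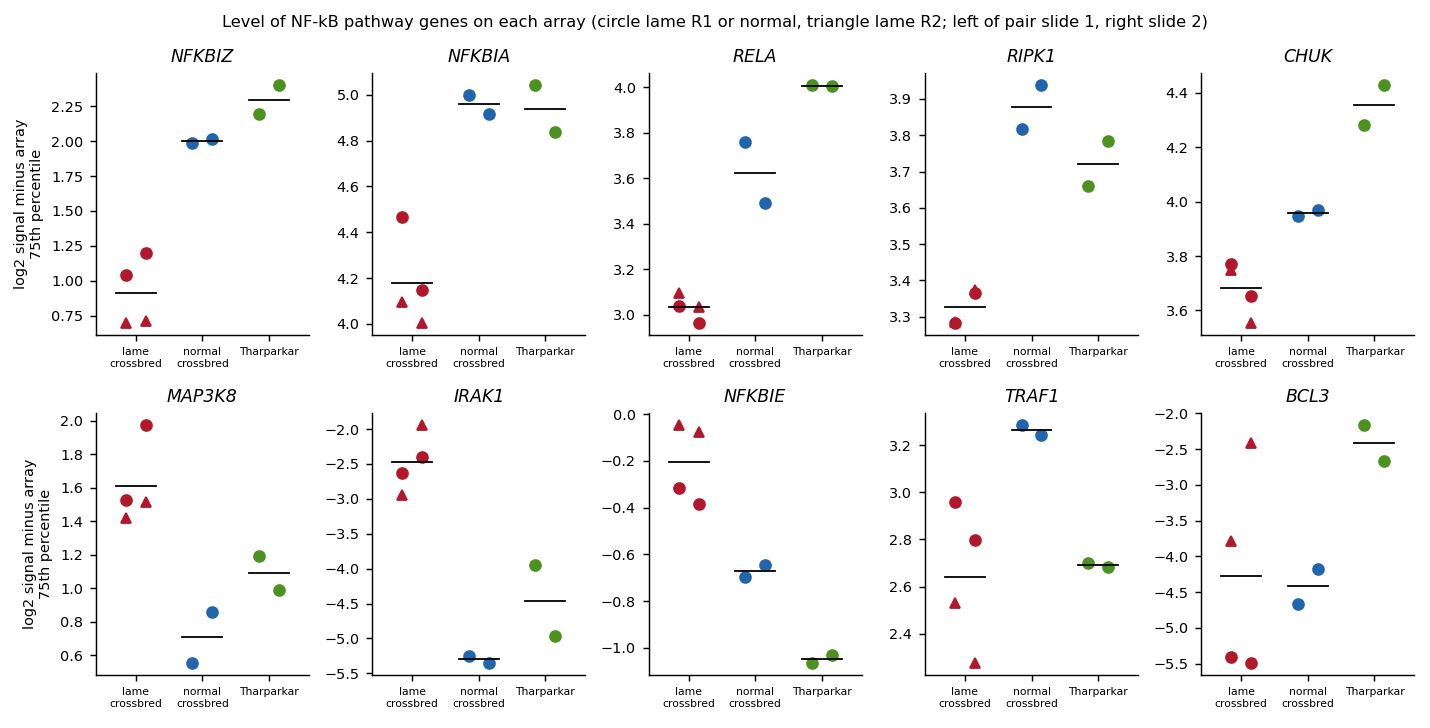
Level of 10 members on each of the 8 arrays (log2 signal minus the array's 75th percentile, a separate axis range per gene), with the group mean as a line. The lame arrays lie below all normal arrays for NFKBIZ, NFKBIA, RELA, RIPK1 and CHUK and above them for MAP3K8, IRAK1 and NFKBIE, whereas those of TRAF1 and BCL3 overlap the Tharparkar arrays.

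Of the 5 IKK and MAP3 kinase genes, MAP3K8 was higher in lame arrays when set against normal crossbred. MAP3K8, also called TPL2, binds the NFKB1 precursor and starts the ERK cascade once freed. Its level was 1.53 and 1.97 on lame R1, 1.42 and 1.51 on lame R2, 0.56 and 0.86 on normal crossbred, and 1.19 and 0.99 on Tharparkar. On this brightest probe all lame arrays exceeded all normal arrays. The difference was 0.90 (SE 0.20, adjusted p = 0.0343) against normal crossbred, 0.92 within slide 1 and 0.88 within slide 2, and 0.52 (SE 0.20, adjusted p = 0.104) against Tharparkar. With the slide as a block the first was no longer called (adjusted p = 0.0558), nor without lame R1_1 (adjusted p = 0.0576) or any 1 normal array (adjusted p = 0.0753 to 0.323).

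CHUK, the IKK alpha subunit, had its lowest levels on the lame arrays and its highest on the Tharparkar arrays. Its level was 3.77 and 3.65 on lame R1, 3.75 and 3.55 on lame R2, 3.95 and 3.97 on normal crossbred, and 4.28 and 4.43 on Tharparkar. No 2 groups overlapped. Only the outer difference passed, at -0.67 for lame minus Tharparkar (SE 0.14, adjusted p = 0.0128; -0.52 within slide 1 and -0.83 within slide 2); the difference between lame and normal crossbred was -0.28 (adjusted p = 0.247) and that between the normal groups -0.39 (adjusted p = 0.123). The outer call was lost with normexp (-0.34, adjusted p = 0.256), with quantile normalization (-0.37, adjusted p = 0.157) and without Tharparkar R1 or R2 (adjusted p = 0.0855 and 0.135).

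The other IKK subunits were not called in any comparison. IKBKB, the catalytic beta subunit, gave 0.33 (SE 0.23) for lame minus normal crossbred, made up of 0.63 for lame R1 and 0.03 for lame R2. IKBKG, the regulatory subunit also called NEMO, gave 0.11 (SE 0.13) there and -0.43 (SE 0.15, adjusted p = 0.0865) between the normal groups, the lowest adjusted p of any member in that comparison. MAP3K14, the kinase of the second NF-kB route, gave 0.35 (SE 0.44) for lame minus normal crossbred (lame R1 alone -0.25, lame R2 alone 0.96).

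The 2 IkB genes that fell encode proteins that act at different sites: NFKBIA, or IkB alpha, holds the dimer in the cytoplasm, whereas NFKBIZ, or IkB zeta, acts in the nucleus on a subset of targets. NFKBIZ levels were 1.04 and 1.20 on lame R1, 0.70 and 0.71 on lame R2, 1.99 and 2.02 on normal crossbred, and 2.19 and 2.40 on Tharparkar. The 4 lame arrays were the 4 lowest, and lame R2 lay below lame R1. NFKBIZ was 2.13-fold lower than in normal crossbred (-1.09, SE 0.19, adjusted p = 0.014; -1.12 within slide 1 and -1.06 within slide 2) and 2.61-fold lower than in Tharparkar (-1.39, SE 0.19, adjusted p = 0.00291; -1.32 and -1.45 within the slides).

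NFKBIA levels were 4.47 and 4.15 on lame R1, 4.10 and 4.01 on lame R2, 5.001 and 4.92 on normal crossbred, and 5.04 and 4.84 on Tharparkar. Again no lame array reached a normal one, and the 2 normal groups overlapped. The gene was 1.71-fold lower than in normal crossbred (-0.78, SE 0.17, adjusted p = 0.0329; -0.72 within slide 1 and -0.84 within slide 2) and 1.69-fold lower than in Tharparkar (-0.76, SE 0.17, adjusted p = 0.019; -0.76 within either slide). Both NFKBIZ and NFKBIA kept their call with the slide as a block (adjusted p = 0.0305 and 0.0456 against normal crossbred). With the duplicates averaged, where either normal group is 1 sample, neither was called against either normal group. The same held for RELA, RIPK1, MAP3K8 and CHUK. Against normal crossbred, NFKBIZ and NFKBIA lost the call without the filter on dim probes (adjusted p = 0.0823 and 0.161) and when either normal crossbred array was left out. NFKBIA also lost it without lame R1_2, lame R2_1 or either Tharparkar array (adjusted p = 0.0608 to 0.0736) and with its probes averaged (adjusted p = 0.0504), and against Tharparkar it lost it with normexp, with quantile normalization and without either Tharparkar array (adjusted p = 0.054 to 0.176).

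NFKBIE, or IkB epsilon, went the other way. Its level was -0.31 and -0.38 on lame R1, -0.05 and -0.08 on lame R2, -0.70 and -0.64 on normal crossbred, and -1.06 and -1.03 on Tharparkar. The 3 groups did not overlap, with lame highest and Tharparkar lowest. The gene was higher in lame than in Tharparkar arrays by 0.84 (SE 0.15, adjusted p = 0.00868; 0.88 within slide 1 and 0.80 within slide 2), and the 0.46 against normal crossbred missed the threshold (SE 0.15, adjusted p = 0.104). The call against Tharparkar was lost with normexp (0.40, adjusted p = 0.159), with the probes averaged (0.205, adjusted p = 0.625; the other probe gave -0.43) and without Tharparkar R1 or R2 (adjusted p = 0.0908 and 0.0812).

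NFKBIB, or IkB beta, and TNIP1, an A20 partner that binds ubiquitin chains, each split by lame RNA sample. TNIP1 levels were 6.27 and 6.12 on lame R1 and 5.34 and 5.23 on lame R2, against 6.21 and 6.13 on normal crossbred and 6.52 and 6.38 on Tharparkar. Lame R1 thus sat with the normal crossbred arrays and lame R2 below every other array, and the difference of the group means was -0.43 (SE 0.32, adjusted p = 0.451). NFKBIB gave -0.15 (SE 0.29) for lame minus normal crossbred (lame R1 alone 0.21, lame R2 alone -0.52).

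BCL3, a nuclear IkB that pairs with the NFKB1 and NFKB2 products, varied most among the lame arrays. Its level was -5.41 and -5.49 on lame R1, -3.79 and -2.42 on lame R2, -4.67 and -4.17 on normal crossbred, and -2.16 and -2.66 on Tharparkar. Lame R1 lay below and lame R2 above the normal crossbred arrays, and lame R2_2 overlapped Tharparkar. The probe was dim, well above background on both lame R2 arrays, neither lame R1 array, 1 normal crossbred and both Tharparkar arrays. No difference passed: 0.14 (SE 0.84) for lame minus normal crossbred, -2.01 (SE 0.96, adjusted p = 0.193) between the normal groups and -1.86 (SE 0.84, adjusted p = 0.149) for lame minus Tharparkar. Without lame R2_2 the last passed (adjusted p = 0.017), as did the difference between the normal groups (adjusted p = 0.0448). BCL3 entered the test through the Tharparkar arrays, where it was high, and these differences are set against arrays not well above background, so their sizes are not measured.

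Of the 3 measured Rel subunits, RELA, which carries the main activation domain of NF-kB, was lower in the lame arrays. Its level was 3.04 and 2.97 on lame R1, 3.09 and 3.03 on lame R2, 3.76 and 3.49 on normal crossbred, and 4.01 and 4.005 on Tharparkar. The lame arrays lay close together and below all normal arrays, and the normal groups did not overlap either. The difference was -0.59 (SE 0.14, adjusted p = 0.0382; -0.69 within slide 1 and -0.49 within slide 2) against normal crossbred and -0.97 (SE 0.14, adjusted p = 0.00333; -0.94 and -1.01) against Tharparkar. The first was lost with the slide as a block (adjusted p = 0.0587), with normexp, with quantile normalization and when any 1 array other than lame R2_2 was left out (adjusted p = 0.0553 to 0.385). RIPK1 likewise held its call only with lame R2_2 left out (adjusted p = 0.0667 to 0.333 without any other array).

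NFKB1, the gene of p105 and p50, and NFKB2, the gene of p100 and p52, were not called. NFKB1 stayed between 3.62 and 3.82 on the lame arrays, 3.93 and 3.998 on normal crossbred and 3.95 and 4.09 on Tharparkar, a difference of -0.21 (SE 0.13, adjusted p = 0.38) for lame minus normal crossbred. NFKB2 was -1.17 and -1.27 on lame R1, -1.30 and -0.44 on lame R2, -1.50 and -1.62 on normal crossbred, and -1.74 and -1.80 on Tharparkar. All lame arrays were above the normal ones, lame R2_2 by the most. The difference of 0.51 (SE 0.26, adjusted p = 0.266) against normal crossbred and of 0.72 (SE 0.26, adjusted p = 0.0838) against Tharparkar missed the threshold; without lame R2_2 the second was 0.52 and passed (adjusted p = 0.0301).

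Of the members known to be transcribed by NF-kB, NFKBIA and NFKBIZ were lower in the lame arrays than in normal crossbred, while TRAF1 (-0.63), BIRC3 (-0.12), CD40 (-0.27), NFKB1 (-0.21), NFKBIE (0.46), NFKB2 (0.51) and BCL3 (0.14) did not pass.

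The 2 lame RNA samples differed from each other by a median of 0.07 over the 24 members, lame R1 being higher for 14 and lame R2 for 10. Over all genes the median was 0.18, with lame R1 higher for 9105 and lame R2 for 6032. The median size of this difference was 0.38 for the members and 0.50 for all genes, against a median SD between duplicate arrays of 0.06 to 0.12 for the members. BCL3 (-2.35) and MAP3K14 (-1.21) differed by more than 1, as did 2343 of all 15137 genes, so such differences are not particular to the members. Lame R1 and lame R2 lay on opposite sides of both normal crossbred arrays for BCL3, BIRC3 and MAP3K14, and of both Tharparkar arrays for BIRC3 and TRAF1. How often this occurred over all genes was not counted. BIRC3 was 5.14 on both lame R1 arrays, and 4.74 and 4.68 on lame R2, with 5.02 and 5.08 on normal crossbred and 4.84 and 4.84 on Tharparkar, so that each lame sample stood clear of the normal arrays on its own side.

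**Figure D3:**
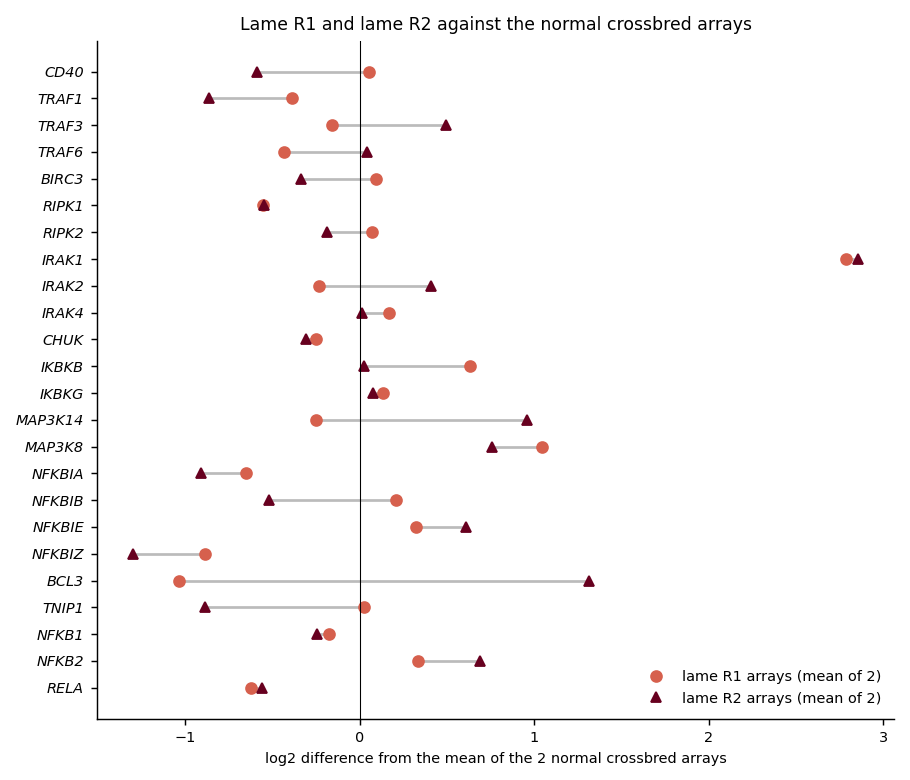
Difference of the lame R1 arrays (circles, mean of 2) and the lame R2 arrays (triangles, mean of 2) from the mean of the 2 normal crossbred arrays, on the log2 scale, for the 24 measured members. The pairs coincide for RIPK1, RELA, IRAK1 and CHUK, and BCL3 is the widest pair, from -1.03 to 1.32.

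Different probes of 1 gene often disagreed. Of the 15 members with at least 2 usable probes, 9 (60.0%) had the same sign in all of them for lame minus normal crossbred, against 55.3% of all such genes. The gene value above is that of the brightest probe, and the brightest probes had a median of -0.21 where the 22 other probes had 0.24; over all genes these medians were -0.08 and 0.18. Without lame R2_2 they were -0.11 and 0.19 for the members. At the level of single probes 5 of 46 passed (10.9%), with a background of 7.34% of all probes.

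RELA depended on its probe. Its 4 probes gave -0.59, 0.01, 0.08 and 0.93 for lame minus normal crossbred. The probe that gave 0.01 read 3.82 and 3.71 on lame R1, 3.04 and 2.95 on lame R2 and 3.34 and 3.40 on normal crossbred. On that probe lame R1 was above and lame R2 below the normal crossbred arrays. With the mean of its probes RELA gave 0.11 (adjusted p = 0.764). The same held for RIPK1, whose probes gave -0.55 and 0.83 and whose mean gave 0.14 (adjusted p = 0.756). For lame minus Tharparkar the 4 RELA probes gave, in the order above, -0.97, -0.09, -0.81 and 0.04. With the mean of its probes RELA gave -0.46 there and was not called (adjusted p = 0.127).

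The probes of NFKBIZ gave -1.09 and -0.43, and those of NFKBIA -0.78, -0.59, -0.45 and -0.0039. No probe of either gene was higher in the lame arrays in this comparison. The probes of MAP3K8 gave 0.90 and 1.15, while IRAK1 had 1 probe. For lame minus Tharparkar the MAP3K8 probes differed in sign, at 0.52 on the brightest and -0.49 on the second. On the second, lame R1 read -1.28 and -1.36 and lame R2 0.12 and 0.04, against -0.10 and -0.17 on Tharparkar. The second probe of NFKB1 passed where the brightest did not. It read -0.91 and -0.95 on lame R1, -0.75 and -0.56 on lame R2, -1.56 and -1.54 on normal crossbred, and -0.59 and -0.53 on Tharparkar. Normal crossbred was the lowest group on this probe, at 0.76 below lame (adjusted p = 0.0353) and 0.99 below Tharparkar (adjusted p = 0.0124).

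Between the normal groups 3 of 46 probes passed (6.52%, background 17.7%), all of them second probes and all lower in the normal crossbred arrays: that of NFKB1, that of CD40 (-0.75, adjusted p = 0.0363) and that of IKBKG (-0.59, adjusted p = 0.0381). Between lame and Tharparkar arrays 8 of 46 passed (17.4%, background 21.6%).

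**Figure D4:**
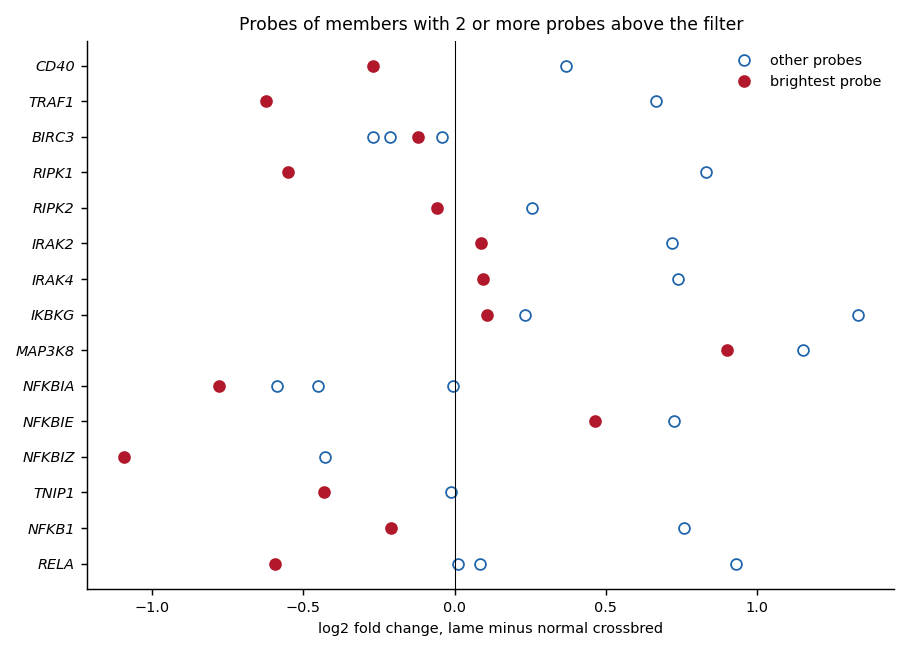
Log2 difference of lame minus normal crossbred arrays for each usable probe of the 15 members with at least 2, the brightest probe filled and the others open. The open points of RELA, RIPK1, TRAF1 and NFKB1 lie on or across the zero line from the filled point, while those of NFKBIZ, MAP3K8 and BIRC3 stay on its side.

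Other genes of the pathway were taken from a list of 42 further receptors, adaptors, kinases and regulators, of which 36 were measured. Against normal crossbred, 2 were higher in the lame arrays and 0 lower (5.56%, background 9.61%): LTBR, the lymphotoxin beta receptor of the second NF-kB route (2.06, SE 0.24, adjusted p = 0.00342), and TNFRSF13C, the BAFF receptor of B cells (0.84, SE 0.21, adjusted p = 0.0497). LTBR was -0.57 and -0.28 on lame R1, -0.71 and -0.0002 on lame R2, -2.50 and -2.40 on normal crossbred, and -1.82 and -1.32 on Tharparkar. The lame arrays were the 4 highest. With the slide as a block 1 of the 36 passed (6.61% of all genes). The count was also 1 without lame R1_1, R1_2 or R2_1 (7.86%, 7.22% and 8.6% of all genes). Fewer than reported passed without any 1 normal array too, as did fewer of all genes.

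Between the normal groups 1 of the 36 was higher in crossbred, the deubiquitinase gene CYLD (1.17, SE 0.25, adjusted p = 0.0179), and 4 were lower. This is 13.9%, below the background of 18.6%. With the duplicates averaged the calls were lost, and fewer of all genes passed. The lower genes were NFKBID, a nuclear IkB (-1.76, SE 0.37, adjusted p = 0.0176), TNFRSF13C (-1.15), TRAF4 (-0.96) and BCL10, the adaptor of antigen receptors (-0.85). After quantile normalization the split was 0 higher and 4 lower (18.6% of all genes passed), and with normexp 0 and 2 (9.22%). Without any 1 of the 4 normal arrays the calls were lost, and fewer of all genes passed.

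Between lame and Tharparkar arrays 2 were higher, CYLD (1.35) and LTBR (1.18), and 7 lower, led by NFKBID (-2.59), the RNase gene ZC3H12A (-1.91), BCL10 (-1.09) and the TNF receptor gene TNFRSF1A (-1.07). This is 25% against a background of 23.3%, and with the duplicates averaged 1 passed. The split was 3 and 5 after quantile normalization and 0 and 4 with normexp. Without Tharparkar R1 only 1 passed, and without Tharparkar R2 3. NFKBID was 2.54 and 2.32 on lame R1, 1.68 and 1.39 on lame R2, 2.89 and 2.74 on normal crossbred, and 4.58 and 4.57 on Tharparkar. The groups did not overlap, and the lame arrays were lowest and the Tharparkar arrays highest, the order also seen for NFKBIZ.

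Target genes outside the pathway were lower in the lame arrays more often than higher. The list held 48 textbook NF-kB targets, 37 of them measured; it was drawn up with earlier results of these data known, so its direction is no independent evidence. Against normal crossbred 11 were lower and 2 higher (35.1%, background 9.61%), with a median of -0.44 against -0.04 for all genes. The interleukin-1 genes IL1A (-4.03, SE 0.48, adjusted p = 0.00361) and IL1B (-3.49, SE 0.27, adjusted p = 0.000728), the chemokine gene CXCL3 (-2.98, SE 0.39, adjusted p = 0.00551; well above background on 1 of 4 lame arrays) and the urokinase receptor gene PLAUR (-2.91, SE 0.35, adjusted p = 0.0039) were the furthest down among those called; PTGS2 (-3.15) and CXCL8 (-3.12) did not pass (adjusted p = 0.0843 and 0.0567). TNFAIP6, a hyaluronan-binding protein gene (3.35, SE 0.16, adjusted p = 0.000104), and the sugar transporter gene SLC2A6 (0.89, SE 0.17, adjusted p = 0.0206) were higher.

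The members that fell ranged from the -0.55 of RIPK1 to the -1.09 of NFKBIZ. Of the 11 targets that fell, JUNB (-0.61) and IL1RN (-0.74) lay within that range. IRF1 (-0.53) fell slightly less than any of these members, and the other targets fell further. IL1B was -1.06 and -1.17 on lame R1, -0.32 and -0.41 on lame R2, 2.77 and 2.72 on normal crossbred, and 3.89 and 3.77 on Tharparkar. Both lame samples lay far below both normal groups. TNFAIP6, by contrast, was between -0.82 and -0.46 on the lame arrays, -3.89 and -4.11 on normal crossbred and -0.74 on both Tharparkar arrays, so that it was normal crossbred that stood apart. Without normal crossbred R1 or R2 that group was left with 1 array, and fewer of the 37 passed, as did fewer of all genes. The median of the 37 was then -0.49 and -0.44.

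Between the normal groups 8 targets were lower in crossbred and 1 higher, TNF (1.26, SE 0.18, adjusted p = 0.00434), which is 24.3% against a background of 18.6%; the median was -0.34. The chemokine gene CXCL5 was put at 6.59-fold or more lower on the processed signals, by the same rule as IRAK1. It was well above background on both Tharparkar arrays and on 0 of 2 normal crossbred arrays (adjusted p = 0.00231, measured means -5.84 and -2.01). TNFAIP6 (-3.26), CXCL2 (-2.26) and CXCL3 (-2.0) followed. After quantile normalization 8 were lower and 3 higher (18.6% of all genes passed). Without a single normal array, or with the duplicates averaged, fewer targets passed, as did fewer of all genes.

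Between lame and Tharparkar arrays 17 were lower and 3 higher (54.1%, background 23.3%), with a median of -1.04. CXCL2 (-4.62), IL1A (-4.60) and IL1B (-4.57) were far lower, as was CXCL3, whose measured -4.98 is no exact size since 1 of 4 lame arrays was well above background, and TNF (0.89), SLC2A6 (0.80) and the survival gene BCL2L1 (0.79) the higher ones. Without Tharparkar R1 or R2 that group was left with 1 array, and the median of the targets was -0.98 and -0.92. Fewer targets passed then, as did fewer of all genes, and the higher ones were no longer called. The same held with the duplicates averaged, where either normal group is 1 sample.

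**Figure D5:**
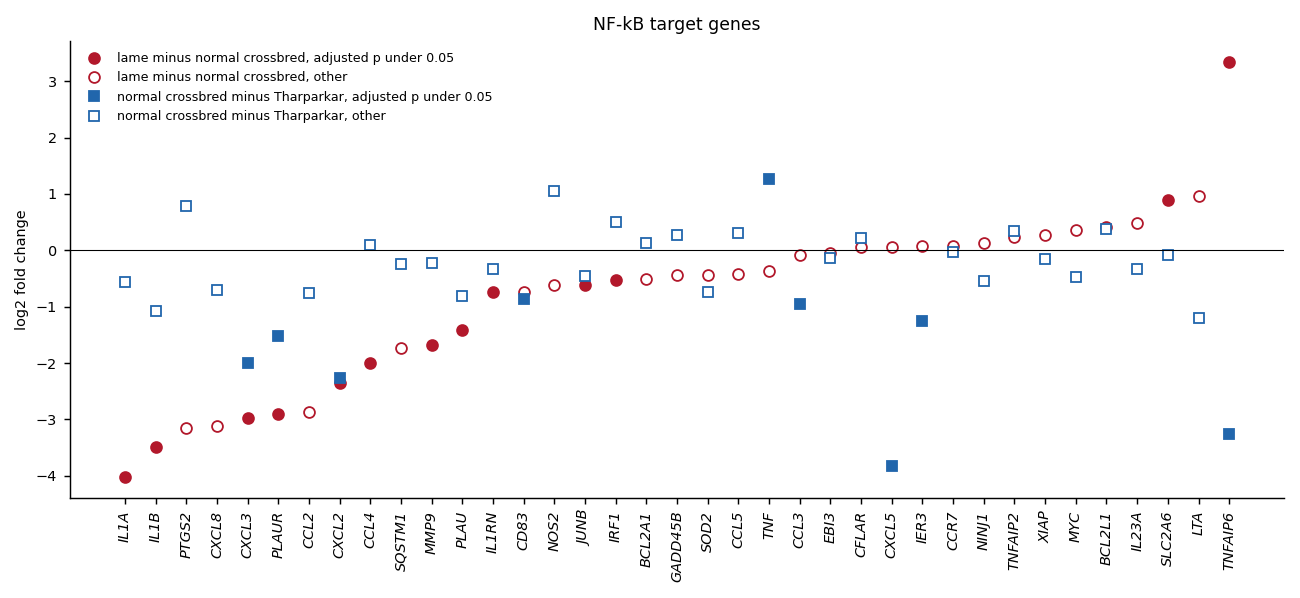
Log2 differences of the 37 measured NF-kB target genes, ordered by lame minus normal crossbred (circles), with normal crossbred minus Tharparkar as squares; filled symbols have an adjusted p under 0.05. Filled circles run from -4.03 for IL1A to 3.35 for TNFAIP6, and the square of TNFAIP6 lies at -3.26. CXCL5 was not well above background on any lame or normal crossbred array, so its square is a measured difference and not a size.

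Marker genes of several blood cell types also differed between these groups. Of 12 measured granulocyte markers 6 were lower and 0 higher in lame arrays than in normal crossbred ones (50%, background 9.61%). Their median was -1.70. Their summed linear level was 151.1 to 198.1 on the lame arrays, 200.4 to 212.2 on normal crossbred and 195.9 to 204.0 on Tharparkar. That sum is mostly S100A12 and S100A8, at log2 levels of 6.74 and 6.41 on lame R1_1. It shows little of falls such as those of CXCR1 (-3.82) and TCN1 (-2.31). CATHL1 and CATHL3 were well above background on 0 of 4 lame arrays and CXCR2 on 2 of 4, while S100A8 (-0.29), S100A9 (0.20) and S100A12 (-0.11) did not pass. Of 10 monocyte markers 1 was higher (CSF1R, 1.00) and 2 lower (CD14, -1.56, and TLR4, -1.71), which is 30% against the same background. Their summed levels were 54.83 to 71.47, 44.71 to 45.82 and 56.48 to 59.21.

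Of 12 T cell markers 4 were lower and 0 higher in lame than in normal crossbred arrays (33.3%, background 9.61%). Their summed levels were 46.99 to 49.43 on lame, 76.89 to 81.41 on normal crossbred and 40.53 to 41.17 on Tharparkar. Of 11 NK and cytotoxic markers 5 were lower and 0 higher (45.5%), with summed levels of 46.33 to 89.35, 145.5 to 156.7 and 61.32 to 65.52. Of 6 B cell markers 0 passed (101.6 to 168.7, 161.0 to 161.5 and 173.8 to 195.2). Platelet (0 of 4), erythroid (1 higher of 5) and epithelial markers (1 lower of 3) were measured too. Between the normal groups 8 T cell markers were higher in crossbred and 1 lower (75%, background 18.6%). Of the NK and cytotoxic markers 5 were higher and 0 lower there (45.5%). Of the granulocyte markers 1 was higher and 1 lower (16.7%), and of the monocyte and B cell markers 0 passed. In such bulk samples fewer cells of a type and less RNA per cell cannot be told apart, and the part of these shifts in the member and target differences was not tested.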

How the data were processed

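PBMC RNA was measured on 8 one-colour Agilent bovine 4x44K arrays. The deposited files hold the scanner software's processed signal intensity per spot, background-subtracted by the authors' Feature Extraction run (version 12.0.3.1 per the file headers, 11.5.1.1 per the submitters' processing notes). The authors' deposited log2 value table was an alternative; it matched the centred log2 intensities (r above 0.999 per array). Its column medians were 0.0041 (lame R1_1), -0.13 (lame R1_2), 0.00036 (lame R2_1), 0.88 (lame R2_2), -0.068 and -0.12 (normal crossbred R1, R2) and 0.025 and 0.095 (Tharparkar R1, R2), and how it was centred is not given in the sources used here.

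Here, log2 intensities were centred on each array's 75th percentile and spots of a probe averaged. A gene took its brightest probe well above background on every array of a group. limma 3.58.1 (R 4.3.3) fitted the 3 group means over 8 arrays, with 5 residual and 2.34 prior degrees of freedom and Benjamini-Hochberg adjustment, and was tested on simulated data. Probes were named by accession through a RefSeq gene table of ARS-UCD2.0: 27054 matched 1 gene and 16599 kept the name in the file. No coordinates or promoter sequences were used here. Members and lists were chosen with earlier results of these data known, and all members are described. Of the 2 other gene lists, up to 4 called genes per direction and comparison with the largest differences are named, and marker genes are named for their role. The number of arrays limits the precision.

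Alternatives were normexp (offset 50, on median signal and background, since mean signal was not used here), quantile normalization, other probe filters, the mean of a gene's probes, the slide as a block, averaged duplicates, array weights, each lame sample alone and each array left out. The last title number equals the slide; deviations of same-numbered arrays correlated at 0.27, 0.21 and 0.24 for the pairs of groups, with only 2 numbers.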

Additional observations from a re-analysis of the deposited data

Results flagged for a closer look

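NFKB2 on lame R2_2 read -0.44, apart from the other 3 lame arrays, which lay between -1.3 and -1.17. The gap was 0.847 of the range of the 4 lame arrays, above Dixon's critical value for 4 values, which chance exceeds in about 1 in 20 groups. The check was made for each of the 24 measured members, so a flag by chance is likely. The critical value also assumes independent values, whereas the lame arrays are read as duplicates of 2 RNA samples. Lame R2_2 was also the brightest array, as given above; the part of that brightness in the NFKB2 value was not tested.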

How the results depend on the processing

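The count of called members depended on the processing, as did the share of all genes called, given in brackets. For lame minus normal crossbred it was 6 of 24 as reported (9.61%) and 3 with normexp (4.58%), 1 of 27 without a filter on dim probes (1.34%), 3 with a gene's probes averaged (9.53%), 3 with the replicate block, which is the slide (6.61%), 1 with averaged duplicates (1.1%), 13 with array weights (48.3%), 11 with lame R1 alone (47.3%) and 14 with lame R2 alone (46.2%); leaving out 1 array at a time gave 0 to 6. Between the normal groups it was 0 as reported and with the replicate block, 3 after quantile normalization, 2 with the mean of probes and 14 with array weights (62.4%), and 0 to 1 with 1 array left out. For lame minus Tharparkar it was 6 as reported and with the replicate block, 3 with normexp (13.8%), 3 of 27 without the filter (5.1%), 0 with averaged duplicates (3.51%), 14 with array weights, 14 with lame R1 alone (55.3%) and 15 with lame R2 alone (58.2%), and 2 to 8 with 1 array left out. Shares of all genes not bracketed above were, for lame minus Tharparkar, 23.3% as reported, 19.2% with the replicate block and 56.0% with array weights. Between the normal groups they were 18.6% as reported, 15.0% with the replicate block, 18.6% after quantile normalization and 22.1% with the mean of probes. A group left with 1 array was assumed to vary like the others. Where a call was involved, signs turned for RELA (0.11) and RIPK1 (0.14) with the mean of probes and for BCL3 with array weights (-0.92) and with lame R1 alone (-1.03) against normal crossbred, and for IRAK1 with normexp (-0.0004) against Tharparkar. Counting differences that did not pass as well, 14 of 24 members changed sign in some setting against normal crossbred (NFKB1 to 0.27 and TRAF1 to 0.02 with the mean of probes, BCL3 to -0.57 after quantile normalization), 10 between the normal groups and 7 for lame minus Tharparkar. Normexp moved the median of all genes by -0.11 between the normal groups and by -0.14 for lame minus Tharparkar. Except where a setting used fewer arrays or tested other genes, the cause was not tested. NFKBIZ kept its call in 15 of 19 settings against normal crossbred and 18 of 19 against Tharparkar, RELA in 6 and 17, and NFKBIA in 10 and 12. With the mean of its probes RELA lost the call in both comparisons.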
